A study of Mus musculus with 15 samples.

Results

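The regions described here are 557 stretches of the mouse genome whose chromatin was more accessible in hepatocytes, reprogrammed hepatocytes and biliary cells of DDC-fed livers than in biliary cells and hepatocytes of untreated livers. They were 557 of 93215 nuclear regions measured by ATAC-seq, an assay in which a transposase cuts accessible DNA and the sequenced fragments count how open each region is. The unit is nuclear RPM, the reads of a region per 1e6 reads over all nuclear regions. A region was a member when the mean of the 3 libraries was at least 5 nuclear RPM in each DDC group, when each of these means was at least 2 times the mean of untreated biliary cells and of untreated hepatocytes, and when the mean of DDC hepatocytes was at least 0.5 of that of DDC reprogrammed hepatocytes. All differences between DDC and untreated libraries in these regions, and the closeness of DDC hepatocytes to reprogrammed ones, were therefore set by the choice and are given as description without a test. Of the 22862 regions that reached 5 nuclear RPM in all DDC groups, 1466 were also 2 times untreated biliary cells, 3595 were 2 times untreated hepatocytes and 621 were both. The last condition removed 64 of those 621.

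The series holds 15 libraries in 5 groups of 3. The groups are DDC-Hep (hepatocytes of livers under DDC), DDC-Rep (reprogrammed hepatocytes of such livers), DDC-Bil (biliary cells of such livers), Untreat-Bil (biliary cells of untreated livers) and Untreat-Hep (hepatocytes of untreated livers). DDC is diethoxycarbonyl-dihydrocollidine, a feed additive that causes bile duct injury. The cells came straight from sorting, with no culture. The strain, age, sex, genotype, duration of DDC, sort markers and the definition of reprogrammed cells were not stated in the labels. Whether replicates were separate animals was not stated either, so p-values cover the spread between libraries, possibly only technical.

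The groups differed in depth and in mitochondrial reads. Nuclear reads per library were 1191409 to 2342643 in DDC-Hep, 4756891 to 9829886 in DDC-Rep, 5151190 to 10395918 in DDC-Bil, 2439831 to 4389653 in Untreat-Bil and only 201705 to 605309 in Untreat-Hep. The mitochondrial share averaged 34.1%, 9.24%, 9.86%, 18.6% and 76.6% of reads in the same order. The labelled cell types were checked against regions tied to marker genes. The summed level over 9 biliary marker genes was 303 to 437 nuclear RPM in DDC-Hep, 952 to 1140 in DDC-Rep, 1516 to 1718 in DDC-Bil, 1178 to 1388 in Untreat-Bil and 328 to 535 in Untreat-Hep. For 9 hepatocyte marker genes it was 2728 to 3887, 553 to 992, 365 to 726, 491 to 1194 and 4283 to 5913 nuclear RPM in that order. The DDC-Rep libraries thus lay nearer to the biliary groups on both lists.

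In the liver, hepatocytes carry out metabolism and make bile, and biliary epithelial cells line the ducts that drain it. When ducts are injured, hepatocytes can take on biliary features, a change known as ductal reprogramming. Injury and cytokine signals reach chromatin through inducible transcription factors such as NF-kB and AP-1 (dimers of FOS, JUN and ATF family proteins), which bind distal enhancers and promoters. RANK, encoded by Tnfrsf11a, is a receptor of the tumour necrosis factor family that feeds into NF-kB.

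Tnfrsf11a had been put forward as a marker of these regions, and the data went against that. None of the 10 regions tied to the gene was a member. The region at its start, chr1:105779995-105782001, had 11.1, 13.4 and 23.5 nuclear RPM in DDC-Hep, 14.5, 15.9 and 17.2 in DDC-Rep and 17.6, 20.8 and 20.3 in DDC-Bil, against 15.1, 12.3 and 17.5 in Untreat-Bil and 0, 16.5 and 0 in Untreat-Hep. The DDC and Untreat-Bil libraries overlapped there. A stronger region downstream, chr1:105864891-105867974, had 31.6 to 48.7 nuclear RPM in DDC-Hep, 60.7 to 69.2 in DDC-Rep and 76.1 to 87.9 in DDC-Bil, against 45.3 to 66.8 in Untreat-Bil and 0 in all 3 Untreat-Hep libraries. At this region DDC-Bil was 1.07 ± 0.27 (SE) above DDC-Hep on the log2 scale and Untreat-Bil was 5.85 ± 0.27 above Untreat-Hep (limma, Benjamini-Hochberg adjusted p = 0.00858 and 2.04e-08). Since Untreat-Hep held no read there, the size of the last value depends on the 1 added before taking logs and is no bound. Its p-value comes from a fit that called 348 unchanged regions in simulated counts of this comparison, as described below, and is not relied on. The gene's strongest region was thus open in untreated biliary cells, whose libraries overlapped those of DDC-Rep there. A weaker region inside the gene, chr1:105784476-105785599, had 8.50 to 12.3 nuclear RPM in DDC-Bil and 4.48 to 5.37 in DDC-Rep. It had 2.46 to 3.64 in Untreat-Bil, only 0 to 0.958 in DDC-Hep and 0 to 9.92 in Untreat-Hep. The region chr1:105880468-105881422 went the other way, with 3.52 to 5.63 in DDC-Bil against 6.56 to 9.57 in Untreat-Bil.

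The few members at promoters are shown first by sequence. RefSeq promoter windows (build GRCm38.p6, 250 bases before to 50 after a transcript start) lay whole inside 23 members, 4.13% of the 557, and these held 25 windows, because 2 lncRNA genes had a pair of overlapping windows each. The share was 11.9% among all regions and 40.9% among the 22862 regions with 5 nuclear RPM or more in each DDC group. The letters TGANTCA, the core that AP-1 dimers recognise, searched on both strands, stood in 9 of the 25 windows (36.0%) and in 7 of the 23 members. Both overlapping pairs, of 5033421B08Rik and Gm52825, were among the 9. Each pair shared 1 match, so the window count holds these matches more than once. The letters stood in 5.63% of the 14859 windows inside any region, in 4.82% of the 12832 windows inside regions with 5 nuclear RPM or more in each DDC group and in 7.81% of all 32851 windows. These shares are per window, and none per region is given beside the 7 of 23. GC content differed too, with a median of 51.3% in the members' windows against 61.3% in windows inside any region and 52.7% in all windows. Among windows between the members' GC quartiles, 48.7% to 54.3%, the letters stood in 7 of 14 members' windows (50%) and in 10% of 2270 windows inside any region. The count is small, and it fell to 18.2% of 44 windows when members were chosen from reads thinned to equal depth. A match describes the letters of the window and is not evidence of a bound site.

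Windows of 4 AP-1-bearing promoters are printed because these letters were more frequent in the members' windows; these genes were chosen after their values were seen. Each runs 5′ to 3′ on the strand of its gene, in lower case, with TGANTCA matches in capitals. Sprr1a encodes a small proline-rich protein of the cornified envelope, its window is chr3:92485832-92486131 (minus strand), and its matches begin 146 and 116 bases before the transcript start. Dhrs9 encodes a retinol dehydrogenase of the short-chain family, its window is chr2:69380212-69380511 (plus strand), and its match begins 18 bases before the start. Gm16191 is annotated as a lncRNA gene with the window chr17:28925017-28925316 (plus strand) and a match 89 bases before the start. 5033421B08Rik, also a lncRNA gene, has the window chr12:8510913-8511212 (plus strand) and a match 22 bases after the start.
Sprr1a: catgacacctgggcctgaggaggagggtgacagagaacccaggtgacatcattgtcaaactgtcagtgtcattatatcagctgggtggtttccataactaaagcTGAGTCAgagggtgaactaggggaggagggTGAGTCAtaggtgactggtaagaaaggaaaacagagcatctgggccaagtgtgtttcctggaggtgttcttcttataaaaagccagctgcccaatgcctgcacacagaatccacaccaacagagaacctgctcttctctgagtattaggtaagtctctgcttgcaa
Dhrs9: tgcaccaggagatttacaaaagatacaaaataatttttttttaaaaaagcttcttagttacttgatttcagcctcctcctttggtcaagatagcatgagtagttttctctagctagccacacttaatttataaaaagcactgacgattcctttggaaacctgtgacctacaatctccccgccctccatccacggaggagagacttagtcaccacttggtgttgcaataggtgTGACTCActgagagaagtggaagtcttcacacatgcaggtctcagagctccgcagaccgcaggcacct
Gm16191: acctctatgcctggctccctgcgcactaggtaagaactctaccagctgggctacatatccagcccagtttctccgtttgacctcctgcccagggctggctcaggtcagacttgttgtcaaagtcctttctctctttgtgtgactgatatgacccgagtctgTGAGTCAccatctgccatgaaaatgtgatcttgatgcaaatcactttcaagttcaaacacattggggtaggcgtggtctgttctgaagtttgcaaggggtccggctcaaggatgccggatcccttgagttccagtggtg
5033421B08Rik: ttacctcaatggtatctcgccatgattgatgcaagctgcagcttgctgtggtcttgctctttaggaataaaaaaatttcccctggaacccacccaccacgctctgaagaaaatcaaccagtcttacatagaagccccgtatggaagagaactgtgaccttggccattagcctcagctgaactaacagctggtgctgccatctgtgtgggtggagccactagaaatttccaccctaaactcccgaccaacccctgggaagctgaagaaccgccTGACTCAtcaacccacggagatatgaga

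The member at the Sprr1a promoter, chr3:92485529-92486746, had 21.3, 19.6 and 18.5 nuclear RPM in DDC-Hep, 24.6, 29.1 and 21.7 in DDC-Rep and 20 to 26.5 in DDC-Bil, against 1.13, 3.69 and 5.01 in Untreat-Bil and 0, 9.91 and 0 in Untreat-Hep. All 9 DDC libraries were above all 6 untreated ones, and among the DDC groups the 3 DDC-Hep libraries lay below the 3 of DDC-Rep, while DDC-Bil overlapped both. At Dhrs9, chr2:69379858-69382080, the values were 17.9, 21.1 and 8.39 in DDC-Hep, 15.2, 10.6 and 19.8 in DDC-Rep and 13.7, 8.93 and 11.8 in DDC-Bil, against 4.16, 4.92 and 3.64 in Untreat-Bil and 0, 6.61 and 0 in Untreat-Hep. The same separation held, with DDC-Hep 3 as the lowest DDC library. The Gm16191 member, chr17:28924881-28928237, did not separate: it had 6.71 to 20.6 nuclear RPM in DDC-Hep, 16.2 to 24.9 in DDC-Rep and 19.3 to 24.3 in DDC-Bil, against 2.28 to 8.31 in Untreat-Bil and 0 to 14.9 in Untreat-Hep. The 5033421B08Rik member, chr12:8509598-8511787, had 23.9 to 35.3 in DDC-Hep, 19.0 to 34.9 in DDC-Rep and 14.4 to 29.7 in DDC-Bil, against 5.33 to 6.42 in Untreat-Bil and 3.30 to 9.92 in Untreat-Hep, with no overlap between DDC and untreated libraries.

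Other motifs behaved differently in the same windows. A loose NF-kB pattern (3 G, any 5 bases, then 2 C, on both strands) stood in 10 of 25 members' windows (40.0%), against 68.9% of windows inside any region and 50.8% of all windows. The TEAD letters GGAATG stood in 4 (16%), against 12.4% and 14.7%. The CRE letters TGACGTCA stood in none of the 25, against 3.02% and 1.79%. The protein-coding genes whose windows lay inside members were Ggt6, Noxa1, Dhrs9, Iqgap3, Sprr1a, Pakap, Crybg2, Lrtm2, Bcl2l14, Bco1 and Pate1, and of these only Sprr1a and Dhrs9 carried TGANTCA. Noxa1 encodes an activator subunit of NADPH oxidase, Ggt6 a gamma-glutamyltransferase family protein and Bco1 the enzyme that cleaves beta-carotene.

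Over the 557 members, the median level was 12.6 nuclear RPM in DDC-Hep, 12.9 in DDC-Rep and 11.9 in DDC-Bil, against 2.69 in Untreat-Bil and 2.20 in Untreat-Hep. Together they took 0.863 ± 0.091% of nuclear reads in DDC-Hep, 0.913 ± 0.098% in DDC-Rep and 0.886 ± 0.103% in DDC-Bil, against 0.211 ± 0.024% in Untreat-Bil and 0.164 ± 0.048% in Untreat-Hep (SD, n = 3 each). The medians of the 9 DDC libraries lay between 10.3 and 13.9 nuclear RPM, those of Untreat-Bil between 2.28 and 3.02, and those of Untreat-Hep at 0, 3.30 and 0. The members were of moderate strength: the 22862 regions with 5 nuclear RPM or more in each DDC group had medians of 22.7, 23.6 and 22.8 nuclear RPM in DDC-Hep, DDC-Rep and DDC-Bil.

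**Figure D1:**
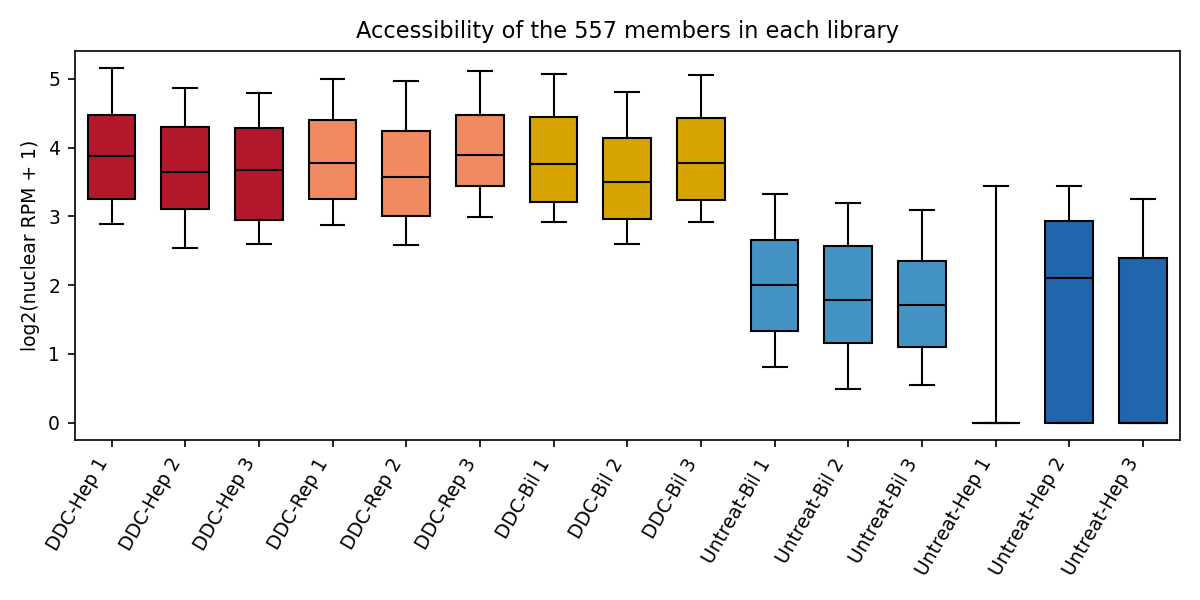
Accessibility of the 557 members in each of the 15 libraries, on a log2(nuclear RPM + 1) axis; boxes span the quartiles with the median as a line, and whiskers run to the 10th and 90th percentiles. The 9 DDC boxes lie at like heights above the Untreat-Bil boxes, and the shallow Untreat-Hep libraries 1 and 3 have a median of 0; the separation of DDC from untreated follows from the choice of members.

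The 9 DDC libraries all lay above the 6 untreated ones in 324 members (58.2%), where 1.14% of all 79075 tested regions did so, and nothing is read from the gap because the same values chose the members. Against the 3 Untreat-Bil libraries alone the 9 DDC libraries did not overlap in 457 members (82.0%), with 3.91% over all tested regions. Within the lineages, all DDC-Bil libraries were above all Untreat-Bil ones in 541 members (21.8% of all regions were so) and all DDC-Hep libraries were above all Untreat-Hep ones in 418 (13.4% of all regions). All DDC-Rep libraries were above all Untreat-Bil ones in 535 members (18.4% of all regions) and above all Untreat-Hep ones in 469 (29.1% of all regions). The median log2 ratio of group means, each plus 1, was 1.84 for DDC-Rep over Untreat-Bil and 1.77 for DDC-Bil over Untreat-Bil.

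The untreated hepatocyte side of the rule rested on very few reads. One read was worth 4.96, 1.65 and 4.26 nuclear RPM in Untreat-Hep libraries 1, 2 and 3. Over these 3 libraries together, 130 members (23.3%) had no read, 195 had 1 to 3 and 232 had 4 or more, with a median of 2 reads and a highest count of 26. Among all tested regions 18% had no read in them. The pooled depth was 1041881 nuclear reads, so a count of 0 allows up to 2.88 nuclear RPM (3 reads, counting error only). When the Untreat-Hep value was taken from pooled reads and set to at least that floor, a choice added after the data were seen, 439 of the 557 members still met the 2-fold condition. By contrast, Untreat-Bil gave a median of 25 reads per member and DDC-Hep a median of 69 with a lowest count of 26. Fewer cells of a responding type and less opening per cell cannot be told apart in such bulk libraries.

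Libraries that took no part in the choice give a measure that the rule did not fix. The rule was applied to 2 of the 3 replicate numbers in every group, and the regions chosen were then read in the libraries of the number left out. With number 1 left out, 536 regions were chosen, and each of the 3 DDC libraries was at least 2 times the Untreat-Bil library in 338 of them (63.1%), against 9.72% of all tested regions. With number 2 left out this was 381 of 666 (57.2%, against 16.3%), and with number 3 left out 377 of 551 (68.4%, against 16.8%). When 2 times both untreated libraries was asked for, the counts were 245 (45.7%, against 6.84%), 207 (31.1%, against 6.23%) and 262 (47.5%, against 9.75%). Replicate 2 of Untreat-Hep, the deepest of its group, belongs to the lowest of these shares. The DDC elevation over untreated biliary cells thus recurred in left-out libraries for 57.2% to 68.4% of chosen regions, and the rest fell short of 2-fold in at least 1 DDC group. Whether the left-out libraries came from other animals was not stated, so the recurrence may be only technical. The share over all tested regions was not matched to the level of the chosen ones.

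**Figure D2:**
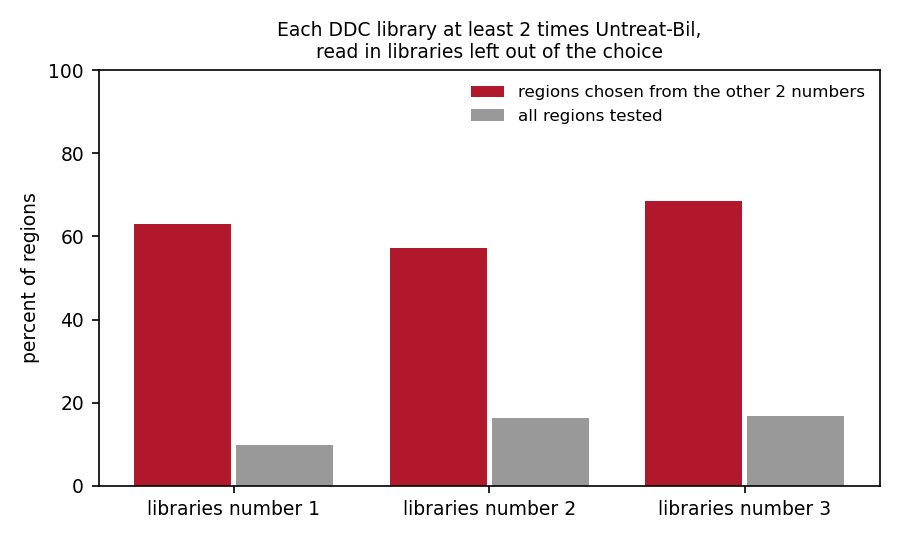
Percent of regions in which each of the 3 DDC libraries was at least 2 times the Untreat-Bil library, read only in the replicate number left out of the choice; red bars are regions chosen from the other libraries and grey bars all 79075 tested regions. The red bars stand at 63.1%, 57.2% and 68.4% and the grey ones at 9.72%, 16.3% and 16.8%.

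The 12 members with the largest ratio of the lowest DDC mean to the higher untreated mean (plus 1) were tied to genes of varied function, and in all 12 the 9 DDC libraries were above the 3 Untreat-Bil ones. Over all tested regions 3.91% were so, but ranking by this ratio favours such separation, and nothing is read from it. First was chr6:82124904-82125930, which lies within 1 kb of the end of a lncRNA gene and 31805 bases from Eva1a, its nearest protein-coding gene, which encodes a membrane protein linked to autophagy. It had 19.6, 14.4 and 10.1 nuclear RPM in DDC-Hep, 13.5, 18.9 and 14.1 in DDC-Rep and 21.4 to 29.0 in DDC-Bil, against 0.756, 0 and 0.456 in Untreat-Bil and 0 in all Untreat-Hep libraries. The DDC-Bil libraries were the highest 3 of the 15. The member near Zscan25, a zinc finger gene, chr5:145313776-145314374, had 6.83, 4.79 and 8.39 nuclear RPM in DDC-Hep, 7.45, 8.24 and 6.94 in DDC-Rep and 10.5, 9.12 and 9.38 in DDC-Bil. It had no read in any of the 6 untreated libraries, so the untreated groups are at their floors and no ratio is given.

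The strongest of these 12 was chr8:122144435-122145832 in the gene body of Zfp469, another zinc finger gene. It had 62.3, 34.5 and 6.71 nuclear RPM in DDC-Hep, 49.5, 51.6 and 47.7 in DDC-Rep and 37.3, 29.5 and 40.2 in DDC-Bil, against 3.02, 2.46 and 3.19 in Untreat-Bil and 0, 0 and 8.52 in Untreat-Hep. DDC-Hep 3, the shallowest DDC library, was far below its 2 companions and below the highest Untreat-Hep library, whose value is 2 reads. This was the only one of the 12 in which DDC and untreated libraries overlapped. At an end of Slc13a3, which encodes a sodium-coupled dicarboxylate transporter, chr2:165404160-165406554 had 20.1, 21.1 and 20.1 in DDC-Hep, 28.6, 34.4 and 29.4 in DDC-Rep and 23.3, 18.1 and 21.6 in DDC-Bil, against 4.53, 2.46 and 0 in Untreat-Bil and 0, 3.30 and 0 in Untreat-Hep. Here DDC-Rep was highest, without overlap with the other DDC groups.

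Insig2 encodes a membrane protein of the endoplasmic reticulum that holds back sterol-regulated transcription. Its member, chr1:121360352-121361121, lies 27690 bases from the gene, within 1 kb of the end of a lncRNA gene. It had 11.1, 10.5 and 8.39 nuclear RPM in DDC-Hep, 15.8, 18.1 and 16.4 in DDC-Rep and 10.5, 7.38 and 10.1 in DDC-Bil, against 0, 1.64 and 0.456 in Untreat-Bil and 0 in all Untreat-Hep libraries. Here too DDC-Rep stood above the other DDC libraries. Rab30 encodes a small GTPase of the Golgi, and its intragenic member, chr7:92757423-92758637, was even across DDC groups with 22.1 ± 1.5 in DDC-Hep, 20.9 ± 2.3 in DDC-Rep and 23.3 ± 4.3 in DDC-Bil, against 0.955 ± 0.161 in Untreat-Bil and 2.84 ± 4.92 in Untreat-Hep (SD, n = 3 each). The remaining leading members were tied to Arhgap22, Zfp106, Lcmt1 (the methyltransferase of protein phosphatase 2A), Cep192 (a centrosome protein) and Spz1 (a leucine zipper protein), and 1 had no gene within 50 kb.

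**Figure D3:**
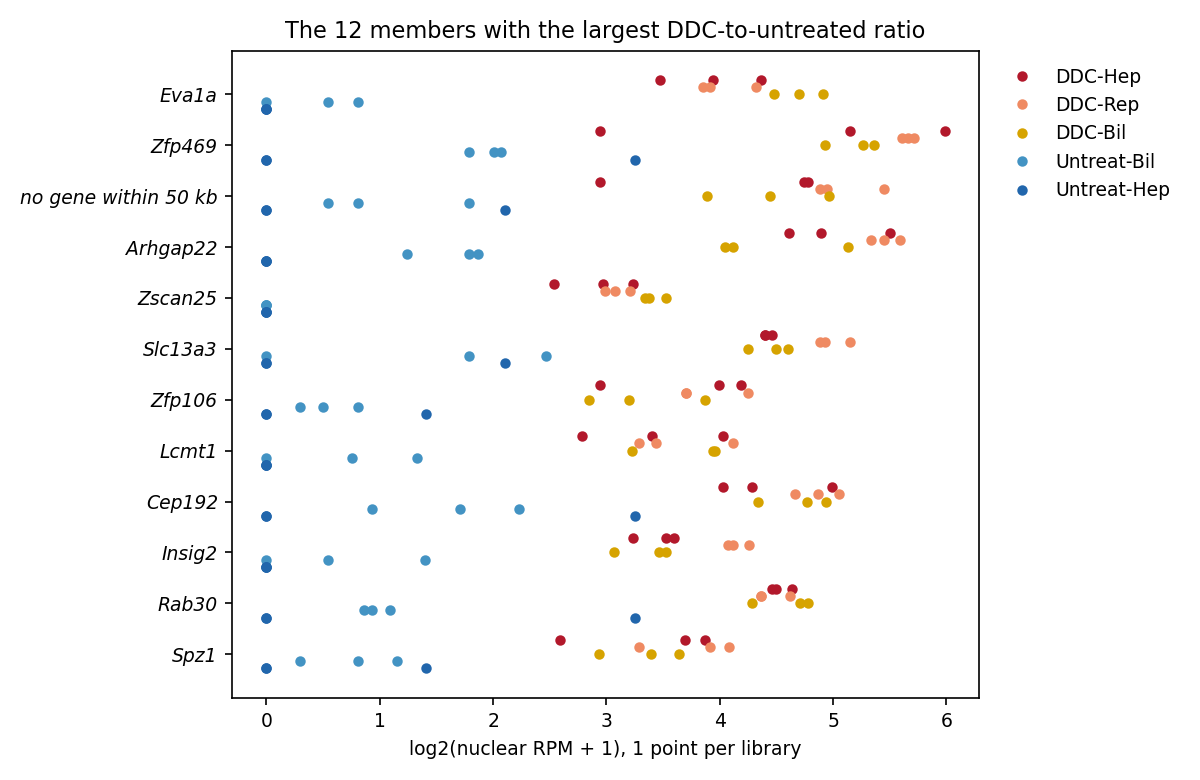
The 12 members with the largest ratio of DDC to untreated levels, each row a member named by its gene and each point 1 library, on a log2(nuclear RPM + 1) axis; colours mark the 5 groups. DDC points lie right of the Untreat-Bil points in every row, and only in the Zfp469 row does a DDC point, DDC-Hep 3, fall left of an untreated one. Ranking by the ratio favours this separation.

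At the other end, the members that only just met the rule were chr12:109958412-109959308 with no gene assigned, and regions tied to Prkag2 and Ap3b2, whose lowest DDC mean was 2.002, 2.004 and 2.007 times the higher untreated mean. The nearest regions that missed it were tied to Csnk1d, Wipf3 and Plekhg6, at 1.9997, 1.9995 and 1.9975 times. The chr12 member had 8.10, 13.1 and 7.49 nuclear RPM in DDC-Hep, DDC-Rep and DDC-Bil, against 3.74 in Untreat-Bil and 0 in Untreat-Hep. The Csnk1d region had 17.7, 10.5 and 6.15 in the DDC groups in that order, against 3.08 in Untreat-Bil and 2.84 in Untreat-Hep. Members and non-members were thus continuous at the threshold.

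Most members stood alone. Of 468 that could be tied to a protein-coding gene, 414 were the only member of their gene, and 26 members (4.67%) lay within 10 kb of another. Only Arhgap22, Larp4b, Pakap and Tcim had 3 members each, out of 21, 21, 38 and 11 regions tied to them.

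Arhgap22 encodes a GTPase-activating protein. Its strongest member, chr14:33357823-33359658 in the gene body, had 44.4, 28.7 and 23.5 nuclear RPM in DDC-Hep, 47.1, 39.4 and 42.7 in DDC-Rep and 34.1, 15.5 and 16.3 in DDC-Bil, against 2.64, 2.46 and 1.37 in Untreat-Bil and 0 in all Untreat-Hep libraries. A second, chr14:33247465-33248366, averaged 21.0 ± 2.5 in DDC-Hep, 15.5 ± 2.1 in DDC-Rep and 9.64 ± 2.82 in DDC-Bil, against 1.12 ± 1.24 in Untreat-Bil and 2.84 ± 4.92 in Untreat-Hep (SD, n = 3 each). In both, DDC-Bil had the lowest DDC mean. The last, chr14:33249937-33251784, lies close by and was already open without injury, with 21.0 ± 5.1 in DDC-Hep, 28.4 ± 3.3 in DDC-Rep and 21.8 ± 2.9 in DDC-Bil, against 9.63 ± 1.65 in Untreat-Bil and 7.88 ± 8.59 in Untreat-Hep.

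Tcim encodes a small transcription-related regulator, and its members lay 35334, 24044 and 16238 bases from it. The middle one, chr8:24412010-24413128, within 1 kb of the end of a lncRNA gene, had 46.5, 25.9 and 34.4 nuclear RPM in DDC-Hep, 20.8, 21.9 and 38.7 in DDC-Rep and 19.3, 16.7 and 30.7 in DDC-Bil, against 2.64, 4.92 and 2.05 in Untreat-Bil and 9.92, 11.6 and 0 in Untreat-Hep. All DDC libraries were above all untreated ones. The strongest, chr8:24418815-24420934, averaged 34.7 ± 20.9 in DDC-Hep, 44.6 ± 19.9 in DDC-Rep and 41.9 ± 9.5 in DDC-Bil, against 10.1 ± 1.6 in Untreat-Bil and 8.35 ± 8.26 in Untreat-Hep, with library 3 highest in each DDC group. The weakest, chr8:24399484-24401838, averaged 11.2 ± 2.9, 11.8 ± 5.7 and 12.9 ± 4.7 in DDC-Hep, DDC-Rep and DDC-Bil, against 1.35 ± 0.39 in Untreat-Bil and 3.30 ± 5.72 in Untreat-Hep, and with thinned reads its lowest DDC mean was below the higher untreated mean.

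Larp4b, an RNA-binding protein gene, had its 3 members at chr13:9060310-9062162, chr13:9128517-9129471 and chr13:9167367-9168551. The first was the strongest, with 36.1 ± 7.0 nuclear RPM in DDC-Hep, 51.7 ± 1.4 in DDC-Rep and 36.2 ± 8.0 in DDC-Bil, against 12.7 ± 3.7 in Untreat-Bil and 16.1 ± 11.9 in Untreat-Hep. Pakap encodes a protein that anchors protein kinase A, and its members averaged 8.71 to 13.8 in DDC-Hep, 9.04 to 25.4 in DDC-Rep and 9.25 to 19.4 in DDC-Bil, against 2.52 to 4.49 in Untreat-Bil and 1.10 to 2.84 in Untreat-Hep.

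Of 8 lists of genes for pathways of injury and repair, 7 held members, 16 in all, so these pathways account for a small part of the 557. The RANK and NF-kB list had a member at 4 of its 36 genes with a region (11.1%), where 439 of all 16551 genes did (2.65%). Counted by region, 5 of its 206 tested regions were members (2.43%), against 0.704% of all tested regions. The AP-1 list had a member at 2 of 16 genes (2 of 104 regions), matrix and integrins at 3 of 21 (3 of 200), EGF ligands and growth factor receptors at 2 of 17 (2 of 169), and keratins, annexins and cytoskeleton at 2 of 24 (2 of 176). Cytokines and the oxidative stress response had 1 gene each, of 25 and 18, and the cell cycle and p53 list had none of 17. Summed over all its regions, the AP-1 list was 3374 to 3735 nuclear RPM in DDC-Hep, 3669 to 3904 in DDC-Rep and 3468 to 3835 in DDC-Bil. Untreat-Bil was above these at 4379 to 4841, and Untreat-Hep below at 2722 to 2922. For RANK and NF-kB, DDC-Hep (2934 to 3177) overlapped Untreat-Bil (3103 to 3151). Only the cytokine list had every DDC library above every untreated one (DDC-Hep 1211 to 1448, Untreat-Bil 1045 to 1191). Lists and members were chosen with these data known, so the shares describe and support nothing.

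In the RANK and NF-kB group, Map3k14 encodes the kinase NIK of the non-canonical NF-kB pathway and had a pair of members. The stronger, chr11:103260323-103262879 in the gene body, had 40.1, 38.3 and 15.1 nuclear RPM in DDC-Hep, 32.4, 29.5 and 21.2 in DDC-Rep and 33.2, 27.8 and 35.1 in DDC-Bil, against 10.6, 12.7 and 9.80 in Untreat-Bil and 0, 3.30 and 17.0 in Untreat-Hep. DDC and Untreat-Bil did not overlap, but DDC-Hep 3 fell below the highest Untreat-Hep library. Traf5 encodes an adaptor of tumour necrosis factor receptors, and chr1:192061471-192062596 had 8.93 ± 1.15 in DDC-Hep, 15.5 ± 2.4 in DDC-Rep and 13.2 ± 1.7 in DDC-Bil, against 3.18 ± 2.16 in Untreat-Bil and no read in Untreat-Hep. Nfkbiz, an inducible nuclear regulator of NF-kB, had 6.44 ± 3.51, 10.8 ± 2.8 and 8.08 ± 1.96 in the DDC groups in that order, against 1.69 ± 0.82 in Untreat-Bil and no read in Untreat-Hep. At Nfkb1, which encodes the p105 and p50 subunit, the member lay near the limit of 5, with 4.79 to 6.71 in DDC-Hep, 3.56 to 7.78 in DDC-Rep and 5.38 to 6.25 in DDC-Bil, against 2.46 to 3.02 in Untreat-Bil and 0 to 3.30 in Untreat-Hep.

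Among AP-1 genes, Fosl2 (a FOS family subunit) had a member outside the gene but within 50 kb, chr5:32191793-32192860, with 28.6, 15.3 and 21.8 nuclear RPM in DDC-Hep, 23.2, 18.7 and 25.9 in DDC-Rep and 13 to 17.1 in DDC-Bil, against 3.02, 0.820 and 1.37 in Untreat-Bil and 9.92, 0 and 0 in Untreat-Hep. All DDC libraries exceeded all untreated ones, of which the highest, 9.92, is 2 reads. Atf3, a stress-induced factor of the ATF family, had a member with 11.3 ± 6.8, 14 ± 5.4 and 14.5 ± 2.7 in DDC-Hep, DDC-Rep and DDC-Bil, against 5.01 ± 1.11 in Untreat-Bil and 3.94 ± 4.29 in Untreat-Hep. In every DDC group the Atf3 libraries were spread, from 6.71 to 19.2 in DDC-Hep alone.

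Growth factor genes with members were Hbegf, which encodes a ligand of the EGF receptor, and Epha2, which encodes an ephrin receptor. The Hbegf member, chr18:36497266-36498599, had 19.6, 12.4 and 13.4 nuclear RPM in DDC-Hep, 35.6, 25.3 and 29.4 in DDC-Rep and 23.9, 16.3 and 23.6 in DDC-Bil, against 2.27, 4.51 and 2.73 in Untreat-Bil and 0 in all Untreat-Hep libraries. DDC-Rep was the highest group there, above all DDC-Hep and DDC-Bil libraries. At Epha2, chr4:141346838-141348420, the groups were close, with 30.2 ± 7.9, 29.5 ± 3.0 and 27.4 ± 6.6 in DDC-Hep, DDC-Rep and DDC-Bil, against 7.68 ± 1.26 in Untreat-Bil and 3.62 ± 3.35 in Untreat-Hep. Csf1, the growth factor of macrophages, had a weak member with 5.09 ± 1.29, 6.11 ± 1.29 and 8.31 ± 0.56 in the DDC groups, against 1.19 ± 1.06 in Untreat-Bil and no read in Untreat-Hep.

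Of the cytoskeletal and matrix genes, S100a11 (a calcium-binding protein) had the strongest member, chr3:93536948-93538939, with 23.1, 23.9 and 48.7 nuclear RPM in DDC-Hep, 46.1, 30.9 and 56.3 in DDC-Rep and 66.8, 30.3 and 62.3 in DDC-Bil, against 3.78, 11.5 and 6.15 in Untreat-Bil and 0, 6.61 and 4.26 in Untreat-Hep. All DDC libraries were above all untreated ones. Tpm1 (tropomyosin), Itga3 (an integrin subunit), Col4a1 (a basement membrane collagen) and Slc7a11 (the cystine transporter) had members with DDC means of 5.44 to 10.1, against 0.388 to 3.24 in Untreat-Bil and no read in Untreat-Hep.

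No member was tied to a gene of the 7 marker lists for biliary cells, hepatocytes, macrophages, lymphocytes, neutrophils, endothelial cells and stellate cells. These lists held 63, 73, 12, 3, 4, 30 and 32 tested regions in that order, and members were 0.704% of all tested regions. With so few regions the absence is near that share and nothing is read from it. Other cell types' markers did move with DDC in part. The summed macrophage markers were 124 to 189 nuclear RPM in DDC-Hep, 132 to 172 in DDC-Rep and 156 to 178 in DDC-Bil, against 118 to 131 in Untreat-Bil and 81.0 to 119 in Untreat-Hep. The endothelial ones were 198 to 217 in DDC-Hep, 145 to 203 in DDC-Rep and 124 to 149 in DDC-Bil, against 77.0 to 108 in Untreat-Bil and 134 to 164 in Untreat-Hep. Stellate and fibroblast markers were 160 to 198 in DDC-Hep, 274 to 305 in DDC-Rep and 231 to 249 in DDC-Bil, against 221 to 259 in Untreat-Bil and 166 to 202 in Untreat-Hep. Neutrophil markers were 8.62 to 15.4 in DDC-Hep, 14.9 to 24.0 in DDC-Rep and 10.9 to 13.8 in DDC-Bil, against 6.42 to 9.43 in Untreat-Bil and 16.5 to 38.3 in Untreat-Hep. Lymphocyte markers were 21.8 to 24.9 in DDC-Hep, 8.75 to 16.8 in DDC-Rep and 14 to 15.4 in DDC-Bil, against 2.73 to 15.5 in Untreat-Bil and 25.5 to 47.9 in Untreat-Hep. The Untreat-Hep values rest on 5, 10 and 9 neutrophil reads and 8, 29 and 6 lymphocyte reads in libraries 1, 2 and 3, so they are near the floor. The part of such cells in the members' levels was not tested.

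The 3 tests compared groups on contrasts that the rule left at least partly free, with limma on log2(nuclear RPM + 1), all 15 libraries and 79075 regions in the fit, and Benjamini-Hochberg adjusted p under 0.05. The first asked whether DDC-Rep differed from DDC-Bil. None of the 557 members was called, and none of all regions was either (0%). At an unadjusted p under 0.05 there were 3 members, edgeR called 4 (0.718%, against 2.79% of all regions) and DESeq2 called 3 (0.539%, against 4.52%). The members' median change of DDC-Rep over DDC-Bil was 0.04 on the log2 scale, and the smallest adjusted p was 0.66. The spread in this fit includes the shallow Untreat-Hep libraries (median SE 0.63). It was also run on counts simulated at the depths of these libraries, with 200 of 79075 regions changed. There it called 1% of the 2-fold and 21% of the 4-fold changes in this comparison. The lack of calls is therefore no sign that the groups were alike. With only the libraries of the 2 groups in the fit, 16 members were called (2.87%), 12 higher and 4 lower in DDC-Rep, against 7.53% of all regions and 4.10% of the 20598 regions that met only the DDC conditions of the rule. The 95% interval lay within 1 log2 unit either way for 418 members (75%) in that fit.

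The second test set DDC-Bil against DDC-Hep. Only 4 members were called (2 higher and 2 lower in DDC-Bil), against 28.6% of all regions. The rule asks for 5 nuclear RPM in both groups and ties DDC-Hep to DDC-Rep, so part of this evenness follows from it: 12.8% of the 20598 regions that met the DDC conditions were called. With only the 2 groups in the fit, 103 members were called (50 higher, 53 lower; 18.5%), against 47% of all regions and 29.3% of those meeting the DDC conditions. A 2-fold difference in the estimate occurred in 56 members, 29 higher and 27 lower in DDC-Bil, which is 10.1% of members against 47.5% of all regions. The simulated counts had 200 of 79075 regions changed. There the fit of 15 libraries called 1% of the 2-fold and 24% of the 4-fold changes in this comparison. With so few changed regions the adjusted threshold is stricter than in the data, so these shares are not the power for members. A member without a call may still differ, since the fit of only the 2 groups called 103.

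The member nearest Gtpbp4, a GTPase of ribosome assembly, chr13:9026922-9028221, had 12 to 17.3 nuclear RPM in DDC-Bil, against 8.96, 3.83 and 5.04 in DDC-Hep (log2 change 1.24 ± 0.42, SE, limma adjusted p = 0.036). Within Pcdh9, a protocadherin gene, chr14:93069933-93071100 had 29.0, 26.8 and 26.6 in DDC-Bil, against 12, 9.58 and 16.8 in DDC-Hep (1.08 ± 0.38, limma adjusted p = 0.0427). Neither pair of groups overlapped.

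In the other direction, a member inside Mertk, the gene of a receptor kinase for the uptake of dying cells, chr2:128731381-128732133, had 6.35, 5.82 and 3.91 nuclear RPM in DDC-Bil, against 18.8, 20.1 and 8.39 in DDC-Hep (-1.33 ± 0.46, limma adjusted p = 0.0397). The member nearest Cttnbp2, a cortactin-binding protein gene, chr6:18349358-18349952, had 4.81, 3.69 and 6.55 in DDC-Bil, against 18.4, 9.10 and 18.5 in DDC-Hep (-1.40 ± 0.51, limma adjusted p = 0.0491). At both the groups did not overlap, and DDC-Rep lay between them by mean. These 4 calls were near the threshold: no member was called without any 1 of the DDC-Bil libraries (16.6% to 21.1% of all regions were) or without DDC-Rep 1 (25.6% of all regions), while 15 to 23 were called without any 1 of the Untreat-Hep libraries (34.9% to 38.2% of all regions).

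The order of the DDC groups was mixed over members. The highest mean was that of DDC-Hep in 185 members, DDC-Rep in 182 and DDC-Bil in 190. The lowest was DDC-Hep in 246, DDC-Rep in 105 and DDC-Bil in 206. The ratio of the highest to the lowest DDC mean had a median of 1.45, and it was within 1.5-fold in 305 members and within 2-fold in 481. The rule sets a lowest level for each DDC group and ties DDC-Hep to DDC-Rep, so part of this evenness follows from it. DDC-Hep was also the shallowest DDC group, and the part of depth in the order was not tested.

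The third test set Untreat-Bil against Untreat-Hep, to ask whether members were equally closed before injury. The rule used both untreated means and so favoured low values in the shallow Untreat-Hep libraries, which can tilt the direction of the calls. Here 113 members were called (20.3%), 111 higher and 2 lower in Untreat-Bil, against 33% of all regions, of which 22.1% were higher and 10.9% lower, and 34.5% of the 20598 regions that met the DDC conditions. Of the 111, 79 had no read in any Untreat-Hep library, so their fitted changes depend on the 1 added before logs. Depth moves with this comparison: with reads thinned to 201705 per library only 7 members were called (1.26%, against 6.97% of all regions). In the simulated counts the fit of 15 libraries called 348 unchanged regions in this comparison. It called 13% of the 2-fold and 42% of the 4-fold changes among 200 changed regions. Most of its calls there were false, so its adjusted p-values were too small in that setting. The false share among the calls in the data, 33% of all regions, is not known from this. The adjusted p-values of the fit of 15 libraries for this comparison are therefore not relied on. With only the 2 groups in the fit 47 of 475 were called (9.89%, against 17.5% of all regions and 12.8% of those meeting the DDC conditions), all of them also in the fit of 15 libraries.

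The largest change was at chr18:74544899-74547058 within Myo5b, a motor protein gene of polarised membrane traffic, with 17.4, 28.3 and 11.2 nuclear RPM in Untreat-Bil, against 0, 3.30 and 0 in Untreat-Hep (log2 change 3.52 ± 0.51, SE, limma adjusted p = 0.000138). Its DDC levels were 33.6 to 43.1 in DDC-Hep, 29.4 to 61.2 in DDC-Rep and 49.7 to 72.3 in DDC-Bil. The member at the Iqgap3 promoter, chr3:88081671-88083436, gene of a scaffold protein of proliferating cells, had 11.7, 12.7 and 11.8 in Untreat-Bil, against 0, 3.30 and 0 in Untreat-Hep (3.01 ± 0.47, limma adjusted p = 0.000237). Both regions were therefore partly open in biliary cells before injury. With only the 2 groups in the fit, the SE was 0.79 for Myo5b and 0.76 for Iqgap3. The limma adjusted p in that fit was 0.0303 and 0.0382 in the same order.

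The lower calls were a region within Nid1, a basement membrane gene, chr13:13471044-13473495, with 7.56, 3.28 and 6.61 nuclear RPM in Untreat-Bil, against 9.92, 18.2 and 17.0 in Untreat-Hep (-1.25 ± 0.41, limma adjusted p = 0.028), and the wide region chr8:126844390-126850528 with 17.8, 13.5 and 9.57 in Untreat-Bil, against 19.8, 26.4 and 25.5 in Untreat-Hep (-0.80 ± 0.25, limma adjusted p = 0.0221). Neither region was called with only the 2 groups in the fit, where all 47 called members were higher in Untreat-Bil. Under the deposited scaling, which counts mitochondrial reads, both changes turned positive (0.36 and 0.91), and under TMM scaling the chr8 region stood at 0.07. The median of all regions in this comparison was 0.39 under the nuclear scaling, 0.88 under TMM and 1.19 as deposited.

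**Figure D4:**
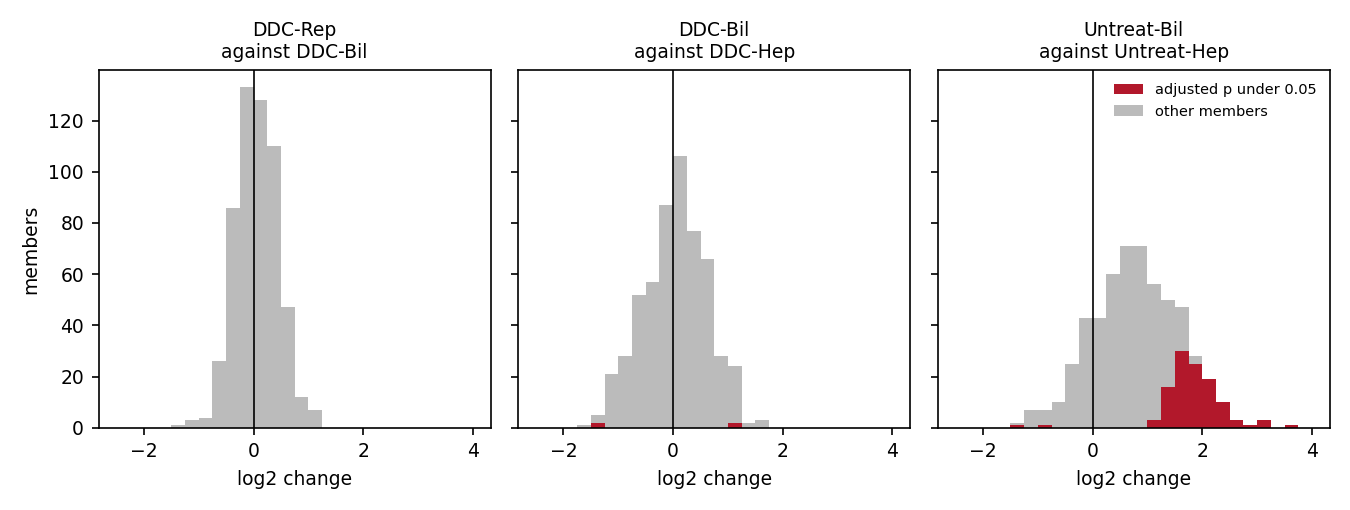
Histograms of the fitted log2 change of the 557 members in the 3 tests, with members called at an adjusted p under 0.05 in red. Changes centre near 0 for DDC-Rep against DDC-Bil (none called) and for DDC-Bil against DDC-Hep (4 called), and lie mostly above 0 for Untreat-Bil against Untreat-Hep (113 called).

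In position, members were mostly away from promoters. An end of a protein-coding or lncRNA gene lay within 1 kb of 84 members (15.1%), 211 (37.9%) were inside a gene body, 185 (33.2%) within 50 kb of a gene and 77 (13.8%) beyond. Over all nuclear regions the shares were 22.1%, 43.5%, 21.8% and 12.7%. Among the 22862 regions with 5 nuclear RPM or more in each DDC group they were 53.4%, 27.4%, 13.6% and 5.63%. The median distance to the nearest end of a protein-coding gene was 19.0 kb for members, 15.1 kb for all regions and 2.05 kb for those 22862. Members had a median width of 1075 bp (10th to 90th percentile 673 to 2237 bp), against 706 bp for all regions and 1817 bp for the 22862. Members were also weaker than the 22862 in DDC libraries, as given above, and the part of strength and width in the position was not tested. Members were spread over the chromosomes, from 0.34% of the regions of chromosome 10 to 0.85% of those of chromosome 8 (43 of 5046) among the autosomes, with 7 of 1818 on X and 0 of 18 on Y.

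**Figure D5:**
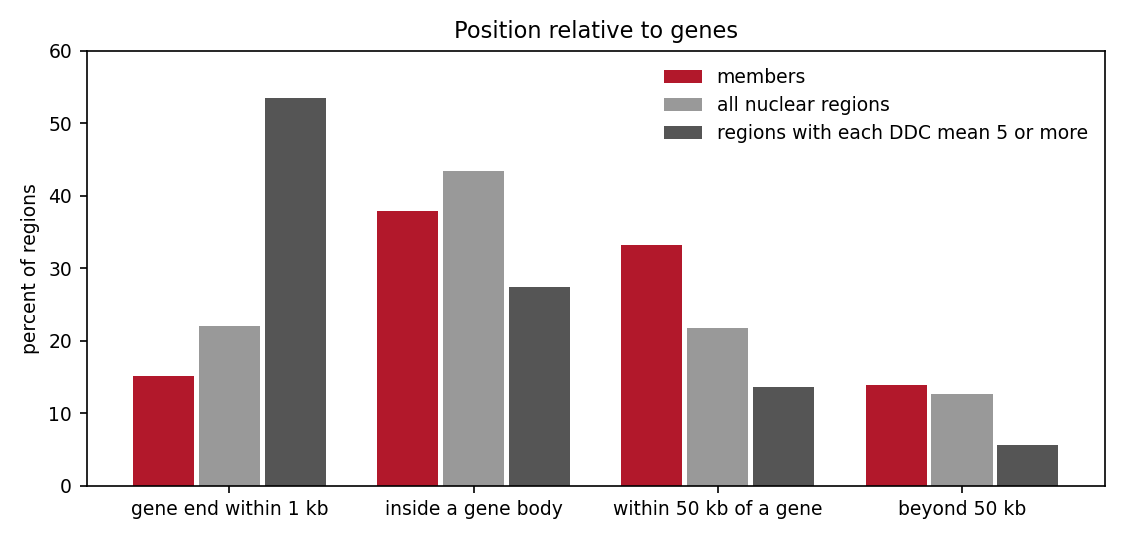
Percent of regions in each position class relative to protein-coding and lncRNA genes, for members, all nuclear regions, and regions with 5 nuclear RPM or more in each DDC group. A gene end lay within 1 kb of 15.1% of members, 22.1% of all regions and 53.4% of the last set, while 33.2% of members were outside genes but within 50 kb.

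A few members lay near microRNA hairpins. The region starting at base 77602435 of chromosome 16 lies 2685 bases from the hairpin of Mirlet7c-1 and 3435 bases from that of Mir99a. It averaged 5.98, 8.39 and 11.3 nuclear RPM in DDC-Hep, DDC-Rep and DDC-Bil, against 0.546 in Untreat-Bil and 0 in Untreat-Hep. A member tied to Tchp overlapped the hairpin of Mir7028, with 35.7, 39.8 and 38.6 in the DDC groups in that order, against 16.5 in Untreat-Bil and 4.41 in Untreat-Hep.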

How the data were processed

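Values came from 1 deposited table over 15 ATAC-seq libraries. The submitters' processing notes name Bowtie2, SAMtools, MACS2, bedtools and build mm10; tool versions, settings and how regions were merged: not given in the sources used here. Deposited values carry the authors' name TPM but are RPM (reads per 1e6 reads over all regions): values up to 100 reads are whole multiples of the step of 1 read (tolerance 0.02; the step of DDC-Rep 1 lies near a power of 10, so the pattern is weaker evidence there). Mitochondrial rows were removed and libraries rescaled to 1e6. Members were those of the rule in the opening; members and gene lists were chosen with earlier results of these data known. Genes came from RefSeq (GRCm38.p6): a body touched, otherwise the nearest within 50 kb. The test was limma-trend on log2(nuclear RPM + 1), regions of mean 1 or more. Log2 ratios of group means used the same 1. The test had been planned for TPM, and its log scale suits both units. Named regions were the 10 of Tnfrsf11a, the 12 leading members, genes with 3 members, up to 4 called members per direction and test, up to 3 members per list, and 3 regions on each side of the threshold; 1 member of the lists is not reported here; promoters, microRNA neighbours and Nfkb1 were picked after their values were seen. Alternatives were other scalings, pseudocounts, no filter, edgeR 4.0.16, DESeq2 1.42.0, thinned reads, 2-group fits, a replicate block and leave-one-out. No pair of libraries was a copy (chi-square per degree of freedom 2.34 to 8.2). Other software was limma 3.58.1 under R 4.3.3, and pandas 2.3.3, numpy 2.4.6 and matplotlib 3.10.9 under Python 3.11.15.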

Additional observations from a re-analysis of the deposited data

How the results depend on the processing

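The number of members was 869 with the deposited scaling (332 shared with the 557), 265 with DDC means of 10 or more and 249 with a fold of 3. It was 669 with group medians, 545 with thinned reads (236 shared), 621 without the condition between DDC-Hep and DDC-Rep, and 507 to 666 with libraries left out. The share within 1 kb of a gene end was 14.1% to 15.8% with libraries left out. The share of promoter windows with TGANTCA was 21.9% to 39.3%, lowest without replicate 2 of every group.

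Members called in DDC-Rep against DDC-Bil were, with the percent of all regions in brackets, 4 with edgeR (2.79%), 3 with DESeq2 (4.52%), 16 with only the 2 groups (7.53%), and 0 to 0 with a library left out. In DDC-Bil against DDC-Hep they were 74 with the deposited scaling (47.0%), 10 with TMM (35.6%), 0 with pseudocount 0.5 (25.8%), 26 with pseudocount 4 (30.9%), 67 with edgeR (43.8%), 102 with DESeq2 (48.9%), 103 with only the 2 groups (47.0%), 2 with thinned reads (5.69%), and 0 to 23 with a library left out. Of the 74, 73 were higher in DDC-Bil, and the median of all regions was 0.15 with the nuclear scaling, 0.51 as deposited and 0.31 with TMM (10 members higher, 0 lower). In Untreat-Bil against Untreat-Hep they were 317 with the deposited scaling (58.1%), 202 with TMM (44.4%), 47 with pseudocount 4 (30.5%), 56 with edgeR (28.5%), 24 with DESeq2 (25%; 18 higher, 6 lower), 47 with only the 2 groups (17.5%), 7 with thinned reads (6.97%), and 78 to 225 with a library left out (225 without Untreat-Hep 2). The causes were not tested.

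Deviations of libraries with equal replicate numbers correlated at 0.08 to 0.21 between the DDC groups tested and at -0.03 to 0.02 between the untreated groups. Weak pairing of the DDC libraries is therefore possible, and the labels do not state it. With the replicate block 0, 2 and 102 members were called in the 3 tests in the order above (0%, 28.1% and 32.6% of all regions). Called regions that turned sign were the Nid1 region (0.36 as deposited) and chr8:126844390-126850528 (0.91 as deposited, 0.073 with TMM). With thinned reads the lowest DDC mean fell below the higher untreated mean at the weakest Tcim member (log2 -0.35). Of the other values of named members over untreated, 589 kept within the spread of replicates and 22 moved. Of those of called members, 186 kept their call and 61 lost it. Untreat-Hep depth limits every statement on hepatocytes before injury.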
